A study of Mus musculus with 12 samples.

Results

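The genes described here encode the respiratory chain of mitochondria, in mouse liver of 3 groups. They were chosen by name alone: protein-coding genes named for subunits of complexes I to V, cytochrome c, and the complex I assembly factors that share the Nduf name, whether the gene lies in the mitochondrial genome or in the nucleus. The rule found 106 members among 25164 listed genes, 13 mitochondrially encoded and 93 nuclear encoded. In the group HFD plus fenofibrate, a high-fat diet was fed for 14 weeks, the first 10 without the drug and the last 4 with fenofibrate given by gavage. HFD had the high-fat diet without the drug for the same 14 weeks, and Control a normal diet for 14 weeks. RNA of whole liver was sequenced in 4 libraries per group, from groups to which 10 mice each had been assigned; the labels state no strain, sex, age or dose. Fenofibrate lowers blood lipids and acts as an agonist of PPARA, a nuclear receptor.

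The respiratory chain passes electrons from NADH (complex I) and succinate (complex II) through complex III and cytochrome c to oxygen at complex IV, and complex V, the ATP synthase, uses the proton gradient so built to make ATP. Complexes I, III, IV and V are mosaics: a few core subunits are encoded by the mitochondrial genome, which is transcribed inside the organelle as long polycistronic RNAs, and all others, with the whole of complex II, are encoded by nuclear genes and imported. Hepatocytes are rich in mitochondria, and PPARA is known in mouse liver for raising genes of fatty acid oxidation, which feeds electrons into this chain.

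Total counts ran from 15797016 to 18514481 per library. Levels are CPM, read counts relative to a library size scaled by TMM, and each change is a log2 fold change ± SE from edgeR's quasi-likelihood test, called where the Benjamini-Hochberg adjusted p over 13477 tested genes was under 0.05. Of the 106 members 102 were tested, 12 mitochondrial and 90 nuclear; mt-Atp8, Cox4i2, Cox6a2 and Cox8b had too few counts. The TMM factors, by which library sizes are multiplied, were 0.99 to 1.16 with fenofibrate, 0.896 to 1.03 in HFD and 0.884 to 0.998 in Control. Hepatocyte markers were abundant in all libraries (11 of 12 listed, none at 0 throughout), and their summed level was 105700 to 139600 CPM with fenofibrate, 121600 to 149700 CPM in HFD and 144600 to 175900 CPM in Control. Most of this sum was Alb (68100 to 117000 CPM), so it does not measure hepatocyte content. Single markers went both ways with fenofibrate against HFD. Cps1 had 3320 to 5470 CPM against 1980 to 2670 CPM, and Serpina1c 91.1 to 147 CPM against 164 to 230 CPM. Fenofibrate libraries 1 and 3 stand apart: 9 striated muscle markers summed to 189.1 and 144.7 CPM there, against 0.492 to 0.719 CPM in fenofibrate libraries 2 and 4, 0.619 to 1.21 CPM in HFD and 0.224 to 0.745 CPM in Control. Fenofibrate library 1 also held 1691 CPM of 10 pancreatic acinar markers, which were at most 0.972 CPM elsewhere. The part of this foreign RNA in the results was not tested beyond the fits without these libraries. Nothing in the labels says that the libraries of a group came from separate mice, and p-values here reflect only how these libraries vary, which may be technical.

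The 13 mitochondrial genes fell into 2 ranges of level that follow their place in the genome. Per kb of transcript and over all 12 libraries, mt-Co1, the catalytic subunit of complex IV, averaged 24040 CPM per kb, mt-Cytb, the cytochrome b of complex III, 14100 CPM per kb, and mt-Nd2 and mt-Nd1, membrane subunits of complex I, 10220 and 9108 CPM per kb. The complex I subunits mt-Nd4, mt-Nd5 and mt-Nd6 followed at 5855, 3514 and 2124 CPM per kb. Every nuclear member lay below these 7 genes; the highest was Atp5b, the catalytic beta subunit of ATP synthase, at 611.7 CPM per kb. The other 6 genes stand side by side, from mt-Co2 to mt-Nd4l, and had far fewer counts than these 7 in every library. They held 0.185% to 0.429% of all counts on the 13 genes. Among them mt-Nd3 averaged 12.7 CPM per kb and mt-Nd4l 8.65 CPM per kb, although they are transcribed between mt-Co1 and mt-Nd4.

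**Figure D1:**
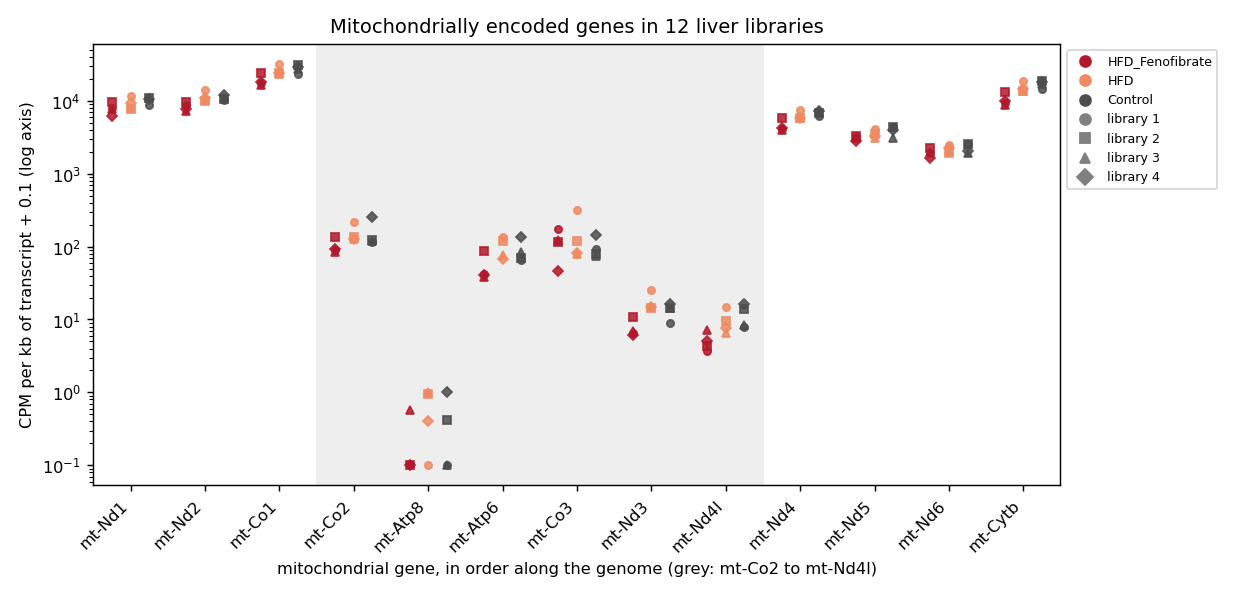
Level of each mitochondrially encoded gene per kb of transcript (log axis, 0.1 added) in each of 4 libraries per group, in gene order along the mitochondrial genome. The 6 genes on grey, mt-Co2 to mt-Nd4l, lie far below the other 7 in every library of all 3 groups.

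Of these 6 genes, 5 matched annotated pseudogenes almost base for base on the minus strand of chromosome 1 (GRCm38 positions 24611535 to 24616197). mt-Atp8 matched an annotated pseudogene over only 43 of its 204 bases, where it overlaps mt-Atp6. The search covered annotated transcripts only. It left out the bases between the pseudogenes Gm10925 (to 24614651) and Gm28661 (from 24614885), which match the genes on either side of mt-Atp8. A fuller copy of mt-Atp8 there was thus not looked for. The pseudogene Gm28661 matched 681 bases of mt-Co2 with 0 differences, Gm10925 matched 678 bases of mt-Atp6 with 0 differences, Gm28437 matched 783 bases of mt-Co3 with 0 differences and Gm10222 matched 294 bases of mt-Nd4l with 0 differences. Gm28438 matched 345 bases of mt-Nd3 with 1 difference, T3C, counted from the first base of the gene with the mitochondrial base first. The copies reach into mt-Nd4, of which Gm28439 matched 876 of 1378 bases (63.6%), and into mt-Co1, of which Gm29216 matched 483 of 1545 bases (31.3%). Reads from the identical parts cannot be assigned to the gene or its copy by sequence. The pseudogenes were themselves listed with counts: over the 12 libraries Gm10925 had 32242 reads and Gm28437 had 12711. The first 80 bases of 2 pairs are shown because they are what a read aligner has to tell apart. They were read from the GENCODE M21 transcripts of GRCm38, and the capital letter marks the base that differs:
mt-Co2 (chrM:7013-7092, plus strand): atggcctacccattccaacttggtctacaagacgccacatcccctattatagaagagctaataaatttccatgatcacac
Gm28661 (chr1:24615486-24615565, minus strand): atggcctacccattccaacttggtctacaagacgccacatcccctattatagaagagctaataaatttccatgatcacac
mt-Nd3 (chrM:9459-9538, plus strand): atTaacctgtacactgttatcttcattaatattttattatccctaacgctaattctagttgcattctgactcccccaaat
Gm28438 (chr1:24613040-24613119, minus strand): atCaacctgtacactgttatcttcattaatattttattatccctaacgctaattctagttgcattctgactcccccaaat

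The mt-Co2 pair has no capital because its 80 bases are identical. Values of the 6 genes from mt-Co2 to mt-Nd4l are therefore uncertain, and the 7 others carry the results below. Of these 7, mt-Nd4 is copied over most of its length as given above, and mt-Co1 also has a longer copy, Gm13340 on chromosome 2, with 97.6% identity; mt-Nd1, mt-Nd2, mt-Nd5, mt-Nd6 and mt-Cytb matched no chromosome 1 pseudogene. Other copies outside chromosome 1 were less alike. On chromosome 2, Gm13339 matched 510 bases of mt-Nd2 with 96.67% identity. On chromosome 4, Gm11410 matched mt-Cytb with 92.91% identity, Gm11407 mt-Nd5 with 92.42% and Gm11408 mt-Nd6 with 93.64%. The labels do not say how reads with several places were counted. The summed level of the 7 chromosome 1 copies was 212.5 to 356.5 CPM with fenofibrate, 363.8 to 659.6 CPM in HFD and 343.9 to 629.5 CPM in Control, so the fenofibrate libraries lay below all HFD libraries and overlapped Control through fenofibrate library 2. The part of these shared reads in the values of mt-Co1 and mt-Nd4 was not tested.

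The comparison of HFD plus fenofibrate with HFD asks what the drug changed under the diet. Mitochondrially encoded genes were lower with fenofibrate: all 12 tested had a negative log2 fold change (that of mt-Co3 became 0.29 without HFD library 1), with a median of -0.46 against 0.01 over all genes tested, and 5 fell and 0 rose. Over all genes tested 6.59% fell and 6.88% rose. The 5 fallers were mt-Cytb and mt-Nd2, which matched no chromosome 1 pseudogene, and mt-Nd4, mt-Nd3 and mt-Atp6, which did. Of the 7 genes outside mt-Co2 to mt-Nd4l, 3 fell and 0 rose, with a median of -0.45.

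mt-Cytb had 10690, 15080, 10020 and 11370 CPM with fenofibrate, against 21110, 15310, 15370 and 16490 CPM in HFD. The groups did not overlap, although fenofibrate library 2 came close to the lowest HFD library. The log2 fold change was -0.53 ± 0.15 (adjusted p = 0.033). mt-Nd2 had 9191, 10060, 7515 and 7916 CPM with fenofibrate, against 14760, 10410, 11060 and 11330 CPM in HFD. Again all fenofibrate values were below all HFD values (-0.46 ± 0.14, adjusted p = 0.0376). mt-Nd4 had 5693, 8045, 5412 and 5857 CPM with fenofibrate, against 10280, 7948, 8036 and 7996 CPM in HFD. Here fenofibrate library 2 lay within the HFD range, so the groups overlapped (-0.45 ± 0.14, adjusted p = 0.0439). mt-Nd3 had 2.27, 3.71, 2.38 and 2.12 CPM with fenofibrate, against 8.69, 4.94, 5.15 and 5.08 CPM in HFD, without overlap (-1.19 ± 0.24, adjusted p = 0.0068). mt-Atp6, a proton channel subunit of complex V, had 28.5, 59.4, 26.1 and 27.5 CPM with fenofibrate, against 91.0, 81.2, 51.3 and 46.4 CPM in HFD. Fenofibrate library 2 again lay inside the HFD range (-0.94 ± 0.29, adjusted p = 0.0465).

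mt-Co1, by far the most counted member, had 26660, 37410, 24960 and 27590 CPM with fenofibrate, against 49110, 37140, 35390 and 37180 CPM in HFD. Fenofibrate libraries 1, 3 and 4 were below all HFD libraries and library 2 was among them, and the change did not pass (-0.45 ± 0.16, adjusted p = 0.0723). mt-Nd1 had 7640, 9074, 7473 and 5980 CPM with fenofibrate, against 1.115e+04, 7388, 7682 and 8920 CPM in HFD and 8413, 1.047e+04, 1.027e+04 and 1.013e+04 CPM in Control, with overlap between fenofibrate and HFD (-0.22 ± 0.15, adjusted p = 0.348). The smallest differences were in mt-Nd5 and mt-Nd6, with log2 fold changes of -0.17 and -0.17 (adjusted p = 0.404 and 0.372). mt-Nd6 is the one protein-coding gene on the other strand of the mitochondrial genome, at 992, 1154, 1018 and 838 CPM with fenofibrate and 1279, 1005, 1050 and 1183 CPM in HFD. Its groups overlapped. Library 1 was the highest HFD library for 12 of the 12 tested genes, and fenofibrate library 2 the highest of its group for 10 of 12. Such counts were not made over all genes tested. Macrophage markers summed to 214.9 CPM in HFD library 1 and 420.2 to 483.7 CPM in the other HFD libraries. Endothelial markers summed to 126.8 and 222.9 to 244.8 CPM there. Fenofibrate library 2 was the lowest of its group for both sums (252.8 and 188.0 CPM). Control library 1 was lowest of its group for macrophage markers (280.0 CPM) and for 9 of the 12 genes. The part of cell make-up in these values was not tested. Without fenofibrate libraries 1 and 3, 0 of the 12 genes passed and the median was -0.38, in a fit that called 0.898% of all genes; without HFD library 1, or without fenofibrate library 1, 3 or 4 alone, mt-Cytb, mt-Nd2, mt-Nd4 and mt-Atp6 did not pass. Some of these calls also ended without another library: mt-Cytb and mt-Nd2 without HFD library 4, mt-Atp6 without HFD library 2 or Control library 3, and mt-Nd4 without HFD library 2, 3 or 4 or Control library 3 or 4. The 2 ribosomal RNAs of the mitochondrial genome, which the name rule leaves out, summed to 609.6, 1073, 511.2 and 1057 CPM with fenofibrate and to 2267, 1737, 1269 and 1983 CPM in HFD, without overlap. Their Control sums of 704.2, 895.7, 1144 and 1737 CPM overlapped both other groups. In whole liver, fewer mitochondria-rich cells and less of these RNAs per cell cannot be told apart.

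Between HFD and Control no mitochondrial gene passed: 0 rose and 0 fell in edgeR's test, with 0 at an unadjusted p under 0.05 and 0 by DESeq2 or limma-voom, beside 6.13% rising and 6.64% falling over all genes tested. The median log2 fold change was -0.08, and -0.13 over the 7 genes outside mt-Co2 to mt-Nd4l. mt-Cytb had 21110, 15310, 15370 and 16490 CPM in HFD and 16700, 21470, 19410 and 20560 CPM in Control, ranges that overlap widely (-0.19 ± 0.15, adjusted p = 0.453). The largest difference, 0.61 ± 0.42 in mt-Co3, rested on HFD library 1, where it had 245.5 CPM against 61.4 to 94.4 CPM in the other HFD libraries and 58.7 to 112.3 CPM in Control.

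HFD plus fenofibrate against Control gave 5 falling and 0 rising mitochondrial genes, beside 4.33% falling and 4.86% rising over all genes tested, with a median of -0.57. Of the 7 genes outside mt-Co2 to mt-Nd4l, 3 fell and 0 rose, with a median of -0.38. mt-Cytb had 10690, 15080, 10020 and 11370 CPM with fenofibrate, against 16700, 21470, 19410 and 20560 CPM in Control (-0.73 ± 0.15, adjusted p = 0.0081). All 4 fenofibrate values lay below all Control values. mt-Nd4 (-0.59 ± 0.14, adjusted p = 0.0165) and mt-Nd4l (-1.20 ± 0.31, adjusted p = 0.0262) also fell without overlap, and mt-Co1 (-0.55 ± 0.16, adjusted p = 0.0432) and mt-Nd3 (-0.83 ± 0.25, adjusted p = 0.0456) fell with overlapping groups. In all, 4 of the 12 lay below Control without overlap and 0 above it, and so did 1 nuclear member below and 2 above, beside 6.26% below and 6.89% above over all genes tested. This comparison shares its fenofibrate libraries with the one against HFD. mt-Cytb passed whichever single library was left out. The other 4 calls ended without fenofibrate library 1 or 4 alone, and those of mt-Nd4, mt-Co1 and mt-Nd3 without library 3. Those of mt-Co1, mt-Nd3 and mt-Nd4l also ended without Control library 2 or 4, those of mt-Co1 and mt-Nd3 without Control library 3 or HFD library 2 or 4, that of mt-Nd3 without HFD library 3 or with limma-voom, and that of mt-Nd4l without fenofibrate library 2. Without fenofibrate libraries 1 and 3 together, none of the 12 passed in edgeR's test, in a fit that called 2.7% of all genes.

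Mitochondrially and nuclear encoded members were next set against each other as shares of a library. Mitochondrially encoded genes took 7.51%, 8.63%, 7.22% and 7.11% of all counts with fenofibrate, against 10.4%, 8.59%, 8.72% and 8.63% in HFD and 8.93%, 9.66%, 9.54% and 9.93% in Control. Fenofibrate libraries 1, 3 and 4 were below the other 9 libraries. The 93 nuclear members took 1.10%, 1.20%, 1.21% and 1.12% with fenofibrate, against 1.06%, 1.02%, 1.02% and 1.12% in HFD and 0.985%, 1.15%, 1.11% and 1.10% in Control, and here the groups overlapped.

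Mitochondrial counts were 6.84, 7.21, 5.97 and 6.33 times the nuclear counts with fenofibrate, against 9.76, 8.45, 8.53 and 7.69 times in HFD and 9.06, 8.41, 8.61 and 9.05 times in Control. All 4 fenofibrate libraries, library 2 included, lay below all 8 others, while HFD overlapped Control. The ratio is formed within a library, so it does not depend on how libraries are scaled, and it averaged 6.59 ± 0.55 with fenofibrate, 8.61 ± 0.86 in HFD and 8.78 ± 0.32 in Control (SD, n = 4 each). Without fenofibrate libraries 1 and 3, the 2 left averaged 6.77. As a sum over members it was given no test. Within complex III, mt-Cytb over its 9 nuclear partners gave 7.10 to 9.55 with fenofibrate, 10.9 to 13.7 in HFD and 12.8 to 13.4 in Control. The fenofibrate range again lay below both others. In complex IV, mt-Co1 over 17 nuclear members gave 15.7 to 19.1 with fenofibrate, 18.6 to 24.6 in HFD and 21.9 to 25.04 in Control, so fenofibrate overlapped HFD through HFD library 4 and lay below Control. In complex I, the 5 mitochondrial genes outside mt-Co2 to mt-Nd4l, the partly copied mt-Nd4 among them, over 36 nuclear subunits gave 11.9 to 14.2 with fenofibrate, 13.1 to 16.9 in HFD and 13.5 to 18.0 in Control, with overlap.

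**Figure D2:**
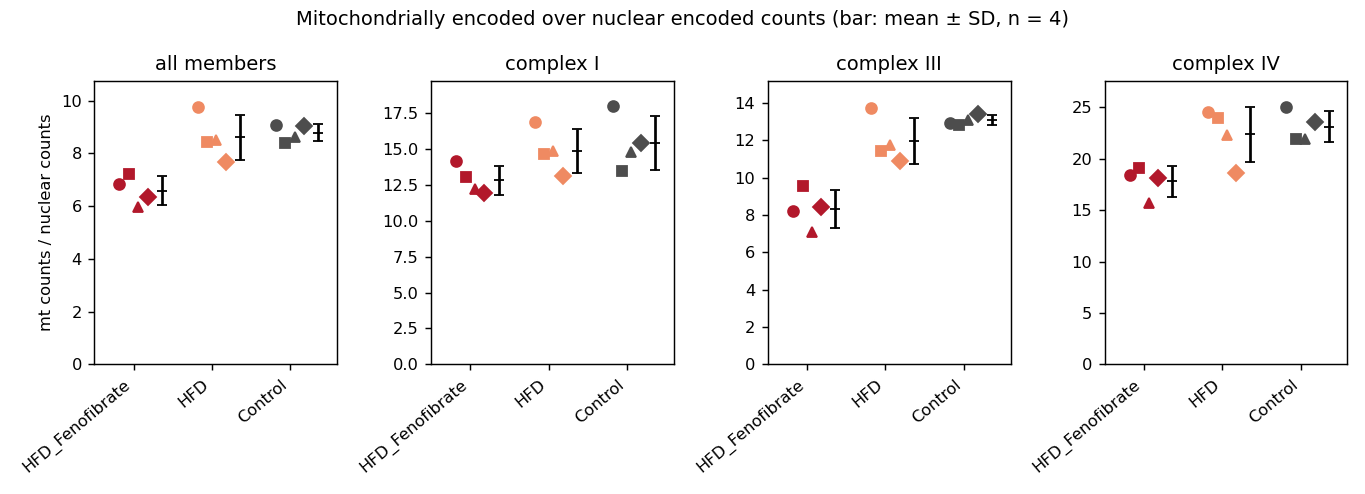
Counts on mitochondrially encoded genes divided by counts on nuclear encoded members, in each library (points) with the mean ± SD of 4 libraries per group, for all members and within complexes I, III and IV (genes outside mt-Co2 to mt-Nd4l). For all members and for complex III every fenofibrate library lies below every HFD and Control library.

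Of 90 nuclear members tested with fenofibrate against HFD, 5 rose and 2 fell, with a median log2 fold change of -0.16, beside 6.88% and 6.59% of all genes tested. edgeR gave 12 up and 20 down at an unadjusted p under 0.05, DESeq2 called 7 up and 8 down, and leaving out 1 library at a time gave 0 to 17 fallers. The 5 that rose were Uqcrc1 of complex III, Cox6a1 and Cox6b2 of complex IV, Atp5d of complex V, and Atp5sl, which despite its name is not a subunit of ATP synthase. Among them Cox6b2 had very few reads, as given below. The 2 that fell were Ndufa1, an accessory subunit of complex I, and Ndufaf4, a complex I assembly factor. Groups did not overlap for 9 members above HFD and 3 below it, beside 10.4% and 10.3% of all genes tested.

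By complex, 0 of the 7 nuclear core subunits of complex I, which carry its flavin and iron-sulfur clusters, passed, with 0 rising and 0 falling and a median of -0.02. Of the 29 accessory subunits 1 fell and 0 rose (median -0.23). In complex II, which has no mitochondrial subunit, 0 of 4 passed, and its flavoprotein Sdha had 426.5, 459.3, 433.5 and 437.4 CPM with fenofibrate and 405.6, 432.0, 386.3 and 388.3 CPM in HFD, with overlap. In complex III 1 of 9 rose (median -0.18), in complex IV 2 of 14 tested (0.02) and in complex V 1 of 15 (-0.21). Atp5b had 1171, 1310, 1199 and 1186 CPM with fenofibrate, against 1098, 1037, 975.8 and 1088 CPM in HFD. These groups did not overlap, but the change did not pass (0.21 ± 0.09, adjusted p = 0.119). Cytochrome c, Cycs, had 91.3, 131.0, 87.3 and 83.3 CPM with fenofibrate and 157.0, 103.2, 93.8 and 125.9 CPM in HFD, with overlap (adjusted p = 0.322).

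Abundant small subunits showed how far single libraries spread. Uqcrq, a small subunit of complex III, had 228, 301.9, 225.7 and 229.7 CPM with fenofibrate, against 292.8, 242.6, 238.8 and 309.2 CPM in HFD and 198.8, 294.2, 260.6 and 266.8 CPM in Control. Ndufa4, first assigned to complex I and now known as a complex IV subunit, had 187.3, 292.8, 206.1 and 202.2 CPM with fenofibrate, against 358, 251.6, 263.1 and 318.8 CPM in HFD and 186.6, 368.7, 294.4 and 320.9 CPM in Control. Fenofibrate library 2 was the highest and Control library 1 the lowest of its group for both. Neither passed in any comparison in edgeR's test, and groups overlapped in all 3.

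**Figure D3:**
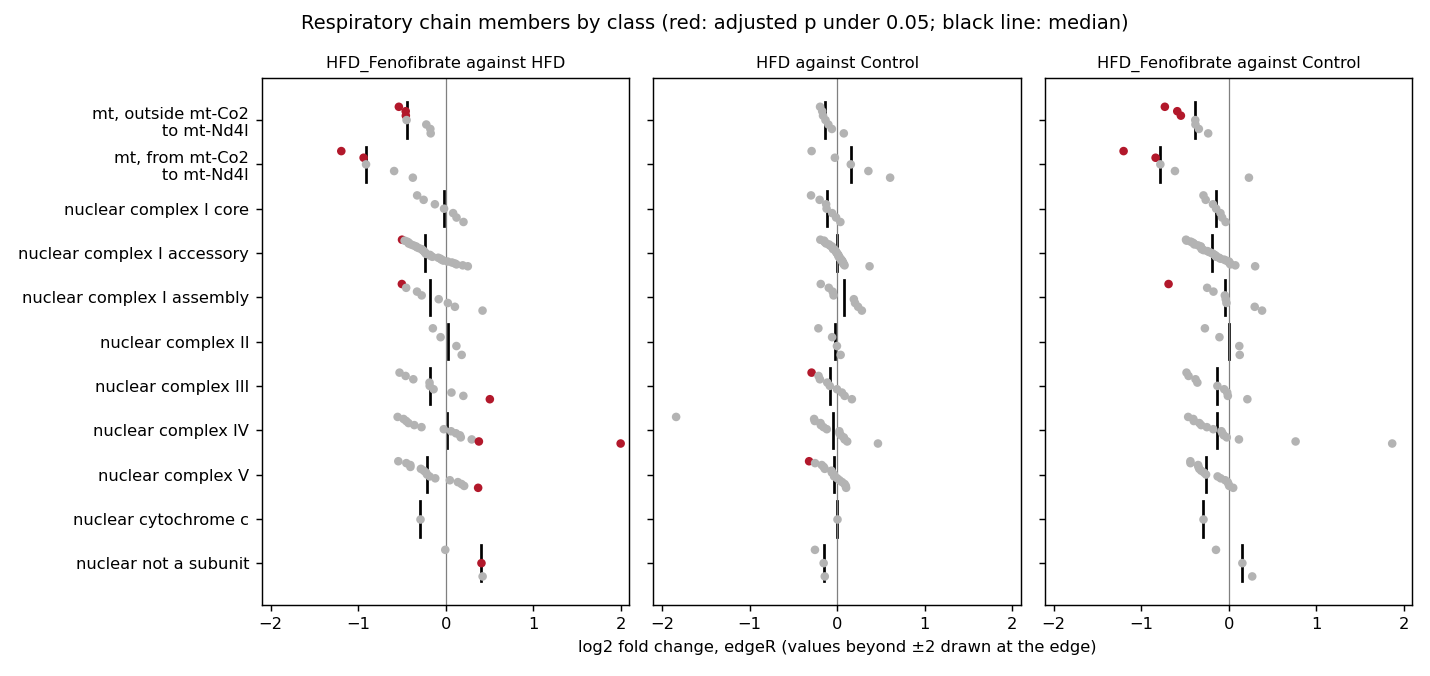
Log2 fold change of each tested member by class in the 3 comparisons, red where the adjusted p was under 0.05, with the median of each class as a black line; 1 value beyond 2 (Cox6b2) is drawn at the edge. Mitochondrial genes lie left of 0 with fenofibrate, all 12 against HFD (mt-Co3 turns positive without HFD library 1) and 11 of 12 against Control, and on both sides of 0 in HFD against Control. Of 90 nuclear members, 31 lie right and 59 left of 0 for fenofibrate against HFD, and 36 and 54 for HFD against Control. For fenofibrate against Control 18 lie right and 72 left, with all 7 nuclear core subunits of complex I left.

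Uqcrc1, the core 1 subunit of complex III (chromosome 9, 108936633 to 108949623), had 262.5, 275.8, 306.0 and 288.2 CPM with fenofibrate, against 192.7, 215.6, 199.2 and 190.3 CPM in HFD. The lowest fenofibrate value was well above the highest HFD value (0.51 ± 0.09, adjusted p = 0.0039). Cox6a1, the form of subunit 6a found in liver and most tissues, had 281.2, 323.8, 297.2 and 293.5 CPM with fenofibrate, against 224.9, 225.6, 216.4 and 251.5 CPM in HFD. The groups did not overlap (0.38 ± 0.09, adjusted p = 0.0116). Atp5d, the delta subunit of the catalytic head of ATP synthase, had 229.2, 230.2, 240.3 and 246.4 CPM with fenofibrate, against 187.6, 170.8, 177.5 and 195.3 CPM in HFD. They were again apart (0.37 ± 0.09, adjusted p = 0.0162). Atp5sl had 47.5, 46.1, 47.3 and 53.2 CPM with fenofibrate, against 36.7, 37.6, 35.4 and 36.3 CPM in HFD, without overlap (0.41 ± 0.09, adjusted p = 0.0119). Without fenofibrate libraries 1 and 3, 0 of the 90 members rose or fell, in a fit that called 0.898% of all genes. The call of Atp5d also ended without HFD library 2 or fenofibrate library 3 alone. The values of Uqcrc1, Cox6a1, Atp5d and Atp5sl in fenofibrate libraries 2 and 4 were nevertheless above all 4 HFD values.

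The fallers were set by libraries 1, 3 and 4. Ndufa1 had 21.02, 30.1, 20.8 and 22.3 CPM with fenofibrate, against 36.8, 28.3, 32.2 and 35.7 CPM in HFD, and library 2 lay within the HFD range (-0.50 ± 0.15, adjusted p = 0.0451). Ndufaf4 had 22.1, 28.0, 17.1 and 20.3 CPM with fenofibrate, against 37.1, 28.4, 27.6 and 30.5 CPM in HFD, with library 2 above the lowest HFD library (-0.50 ± 0.15, adjusted p = 0.0388). Without composition scaling, where the median of all genes moved to 0.18, neither passed. Both calls also ended without fenofibrate library 1, 3 or 4 or HFD library 1 or 4 alone, that of Ndufa1 without HFD library 3 or Control library 3 or 4, and that of Ndufaf4 without HFD library 2.

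**Figure D4:**
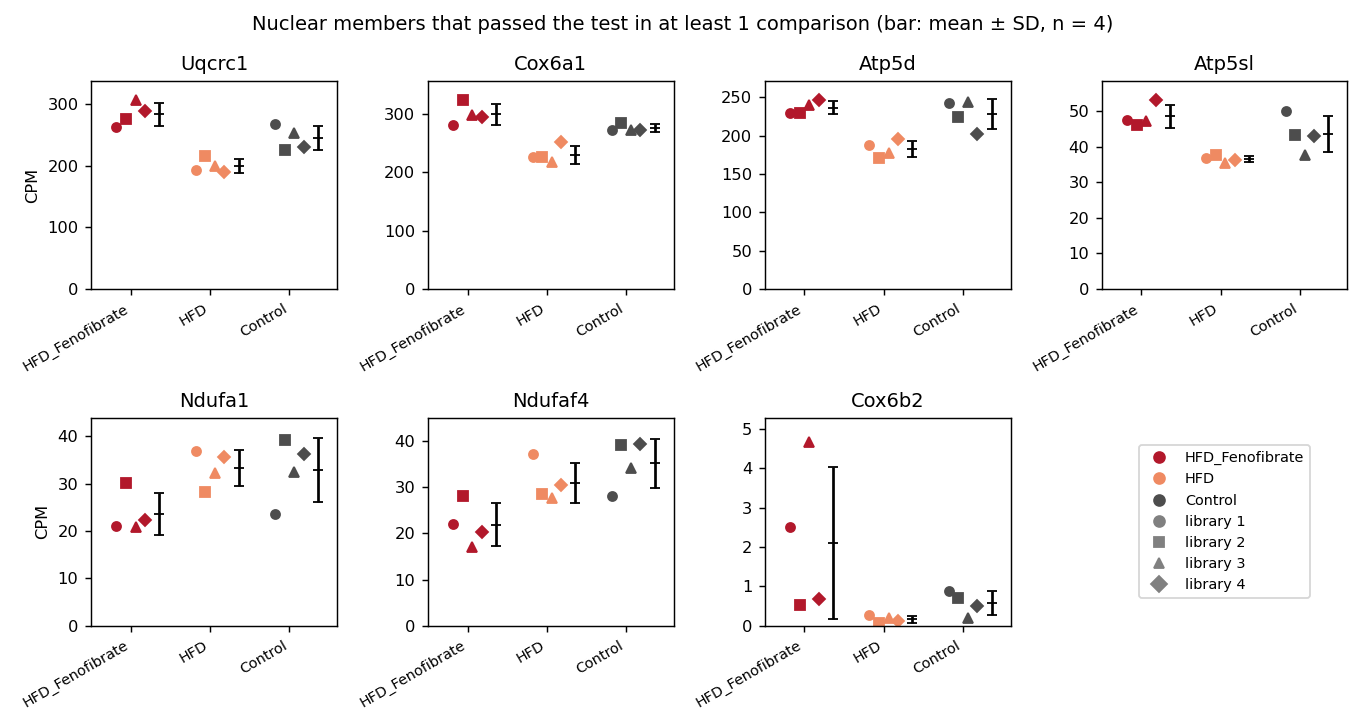
CPM of the 7 nuclear members that passed in at least 1 comparison, for each library (points) with the mean ± SD of 4 libraries per group. Uqcrc1, Cox6a1, Atp5d and Atp5sl are lowest in HFD, and Ndufa1 and Ndufaf4 are lowest in fenofibrate libraries 1, 3 and 4.

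Promoters were looked at because nuclear genes of the chain are known for binding sites of NRF1, ETS-family factors such as GABPA, and YY1. RefSeq promoters of GRCm38.p6, from 250 bases before to 50 after the start, matched 74 of the 93 nuclear members. The NRF1 motif (GCGC, any 2 bases, GCGC) was found in 20 of them (27.03%), against 6.43% of 27025 promoters. The ETS motif CCGGAAG was in 17 (23.0%), against 9.12%, and the YY1 motif AAGATGGC in 9 (12.2%), against 2.88%; both strands were searched. Of the members that passed, Uqcrc1, Cox6a1 and Ndufaf4 held the NRF1 letters, and Atp5d, Ndufa1 and Cox6b2 held none of the 3 motifs. The promoters of Uqcrc1 and Cox6a1 are shown as those of the riser with the lowest adjusted p and of a riser with both kinds of site, with matches in capitals:
Uqcrc1 (chr9:108936398-108936697, plus strand): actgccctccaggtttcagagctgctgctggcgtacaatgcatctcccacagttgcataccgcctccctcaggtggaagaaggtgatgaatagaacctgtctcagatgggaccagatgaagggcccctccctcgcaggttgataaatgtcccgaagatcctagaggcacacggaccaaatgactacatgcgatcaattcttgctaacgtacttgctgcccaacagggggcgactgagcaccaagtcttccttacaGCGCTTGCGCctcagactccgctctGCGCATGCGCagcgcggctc
Cox6a1 (chr5:115348909-115349208, minus strand): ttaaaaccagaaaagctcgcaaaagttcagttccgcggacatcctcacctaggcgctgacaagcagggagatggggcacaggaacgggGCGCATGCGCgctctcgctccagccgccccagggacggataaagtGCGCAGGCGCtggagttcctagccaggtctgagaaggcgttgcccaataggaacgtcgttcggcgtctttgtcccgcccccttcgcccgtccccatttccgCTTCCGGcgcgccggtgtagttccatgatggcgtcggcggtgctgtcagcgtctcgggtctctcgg

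A match is a run of letters, not a measured binding site. Of the genes for these factors, Nrf1 averaged 9.78 ± 0.57 CPM with fenofibrate, 9.61 ± 0.60 CPM in HFD and 10.3 ± 0.74 CPM in Control, and Gabpa 40.4 ± 2.43, 40.6 ± 2.34 and 44.5 ± 2.74 CPM in the same groups (SD, n = 4 each). Neither passed in any comparison in edgeR's test.

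The diet alone moved 2 nuclear members of 90, both down, and 0 up; DESeq2 called 6 down and 0 up, and edgeR gave 2 up and 9 down at an unadjusted p under 0.05. Over all genes tested 6.13% rose and 6.64% fell. Atp5d had 187.6, 170.8, 177.5 and 195.3 CPM in HFD, against 242.0, 224.6, 243.6 and 202.3 CPM in Control. The groups did not overlap, with Control library 4 nearest to HFD (-0.32 ± 0.09, adjusted p = 0.0296). Uqcrc1 had 192.7, 215.6, 199.2 and 190.3 CPM in HFD, against 267.8, 225.7, 252.1 and 230.8 CPM in Control, also without overlap (-0.29 ± 0.09, adjusted p = 0.0483). Cox6a1 (-0.26 ± 0.09, adjusted p = 0.0572), Atp5sl (-0.25 ± 0.09, adjusted p = 0.0909) and Atp5b (-0.25 ± 0.09, adjusted p = 0.0799) did not pass, but their HFD values lay below all Control values. In all, 11 nuclear members lay below Control without overlap and 0 above it, beside 9.16% and 8.47% of all genes tested. Neither call held in all fits that left out 1 library, although the log2 fold changes moved little. They stayed within -0.373 to -0.279 for Atp5d and -0.331 to -0.232 for Uqcrc1. The call of Atp5d ended without library 1 of any group, without Control library 3, and without HFD library 2 or 3, and leaving out any 1 library other than Control library 2 ended that of Uqcrc1. Since the same HFD libraries serve both comparisons, high values with fenofibrate and low values under the diet are not separate observations for Uqcrc1 and Atp5d.

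Against Control, fenofibrate moved 1 nuclear member of 90 down and 0 up, beside 4.33% and 4.86% of all genes tested; edgeR gave 5 up and 15 down at an unadjusted p under 0.05, and DESeq2 called 2 up and 2 down. Ndufaf4 had 22.1, 28.0, 17.1 and 20.3 CPM with fenofibrate, against 28.1, 39.2, 34.1 and 39.3 CPM in Control. All fenofibrate values were below all Control values, by a narrow margin between fenofibrate library 2 and Control library 1 (-0.69 ± 0.15, adjusted p = 0.0099). Uqcrc1 (0.21 ± 0.09, adjusted p = 0.161), Cox6a1 (0.12 ± 0.09, adjusted p = 0.422) and Atp5d (0.05 ± 0.09, adjusted p = 0.767) overlapped Control. The negative medians of nuclear classes moved with scaling: without composition scaling the nuclear median became 0.07 against Control and 0.003 against HFD, while the mitochondrial median was -0.36 and -0.29.

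Nuclear members went up and down together from library to library within a group. Fenofibrate library 2 was the highest of its group for 78 of 90 nuclear members, Control library 2 the highest for 65, and Control library 1 the lowest for 70. Such counts were not made over all genes tested, so this movement is not shown to be particular to the members. The cytosolic ribosomal protein genes, which make up the ribosome outside mitochondria, had the same highest libraries with fenofibrate and in Control, and the same lowest one in Control. They summed to 10560, 13250, 10710 and 10490 CPM with fenofibrate, to 13870, 11630, 11380 and 14550 CPM in HFD, and to 10250, 17670, 13740 and 15040 CPM in Control. Members with transcripts shorter than the median of 944 bases lay farther from the mean than longer ones in 11 of 12 libraries, by little in fenofibrate library 2; in HFD library 3 the longer ones did (-0.10 against -0.05). This was not tested. Each length is that of 1 annotated transcript per gene, which need not be the one expressed in liver. Uqcrq, a small subunit, thus counts among the longer at 1521 bases. The shorter members' median deviation from the 12-library mean, in log2, was -0.32 and 0.13 in fenofibrate libraries 1 and 2 and -0.30 and 0.38 in Control libraries 1 and 2. For longer transcripts it was -0.14 and 0.13 in those fenofibrate libraries and -0.18 and 0.20 in those Control libraries. With fenofibrate against HFD the median log2 fold change was -0.22 for shorter and -0.08 for longer members. What in the tissue or in the libraries sets this shared movement was not tested.

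Several complex IV and V subunits exist in tissue-specific forms, and the liver libraries held mostly the common ones. In heart and skeletal muscle Cox6a2, Cox7a1 and Cox8b take the place of Cox6a1, Cox7a2 and Cox8a, while Cox4i2 is a lung form and Cox6b2 a testis form. Per kb over the 12 libraries, Cox6a1 averaged 469.3 CPM per kb against 1.04 for Cox6a2, and Cox8a 394.0 CPM per kb against 0.364 for Cox8b. Cox6b2 averaged 1.61 CPM per kb beside 194.4 for Cox6b1, and Cox7a1 1.49 CPM per kb. Cox6a2 and Cox8b were counted mainly where muscle markers were, and Cox7a1 was not. Cox6a2 had 4.64, 0, 3.50 and 0 CPM with fenofibrate, against 0.067, 0.059, 0 and 0 CPM in HFD and 0, 0, 0.186 and 0 CPM in Control. Cox8b had 1.18, 0, 0.389 and 0 CPM with fenofibrate and no count in HFD or Control. For both the high libraries were fenofibrate 1 and 3, the ones with striated muscle markers. Cox7a1 had 1.04, 0.659, 0.534 and 0.689 CPM with fenofibrate, 0.809, 0.529, 0.613 and 0.433 CPM in HFD and 0.447, 0.453, 0.248 and 0.559 CPM in Control, with overlap, and fenofibrate library 3 was the lowest of its group.

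Among the 102 tested members Cox6b2 gave the largest log2 fold change, 3.71 ± 0.75 with fenofibrate against HFD (adjusted p = 0.0065). Its HFD values, at most 0.270 CPM, are only a few reads per library, so the size of this change is uncertain. It had 2.52, 0.539, 4.67 and 0.689 CPM with fenofibrate, against 0.270, 0.059, 0.184 and 0.124 CPM in HFD and 0.894, 0.712, 0.186 and 0.497 CPM in Control. Fenofibrate libraries 1 and 3 were highest of all 12, but libraries 2 and 4 also lay above all HFD libraries, and within the Control range. Without libraries 1 and 3 the change was 1.94 (adjusted p = 0.171). The 5 testis markers were not listed with counts in either table, and the part of muscle RNA in this gene's values was not tested.

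**Figure D5:**
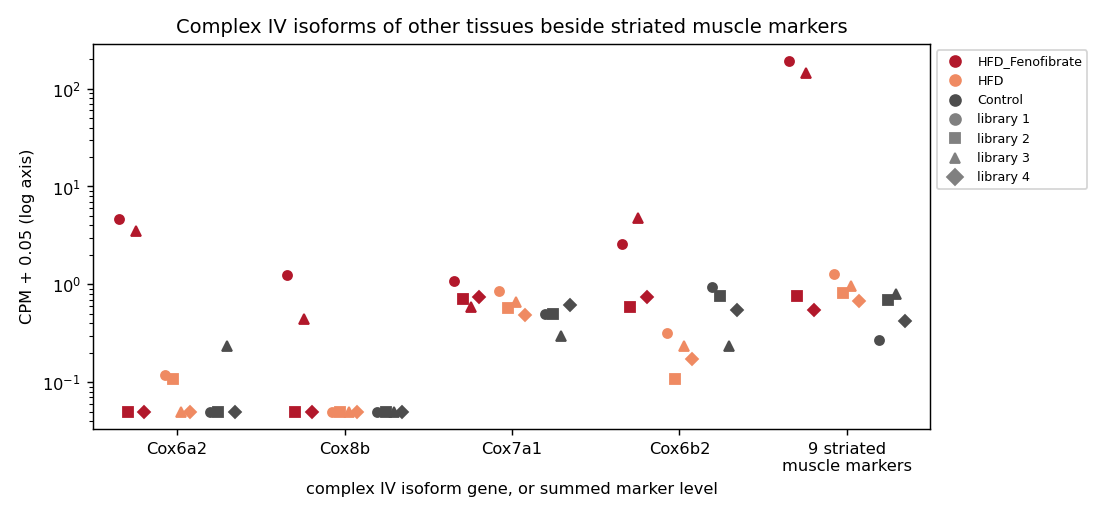
CPM (log axis, 0.05 added) of 4 complex IV isoform genes of other tissues and the summed level of 9 striated muscle markers in each library. Cox6a2, Cox8b and the muscle markers are high in fenofibrate libraries 1 and 3 only, while Cox6b2 is raised in those and, less, in the 2 other fenofibrate libraries compared with HFD.

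The 3 genes for subunit c of ATP synthase, Atp5g1, Atp5g2 and Atp5g3, encode the same mature protein. They averaged 114.9, 77.0 and 242.2 CPM with fenofibrate, against 104.2, 83.5 and 234.1 CPM in HFD and 115.0, 82.0 and 243.9 CPM in Control, and none passed in any comparison in edgeR's test. For Atp5g2, as for Ndufs3, Uqcrb, Cox7c, Atp5h, Atp5l and Atp5o, a near-identical copy elsewhere in the genome covers most of the transcript, so single values are less certain.

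Genes that serve the chain without belonging to it were taken from lists. Their counts stand beside 6.88% rising and 6.59% falling over all genes tested with fenofibrate against HFD, 6.13% and 6.64% in HFD against Control, and 4.86% and 4.33% with fenofibrate against Control. Of 34 tested assembly factors outside the name rule, fenofibrate against HFD raised 2 and lowered 3 (median -0.08), near the shares over all genes. Cox15, which makes the heme a of complex IV, had 34.55, 31.63, 39.46 and 31 CPM with fenofibrate, against 25.27, 25.65, 26.97 and 25.01 CPM in HFD (0.41 ± 0.09, adjusted p = 0.0116). Cox19, a copper-related assembly factor of complex IV, had 27.8, 35.0, 27.5 and 28.6 CPM with fenofibrate, against 49.0, 45.2, 40.3 and 46.7 CPM in HFD (-0.61 ± 0.13, adjusted p = 0.0075). Neither pair of groups overlapped. The complex II factor Sdhaf3 fell (-0.47, adjusted p = 0.0218) and the complex I factor Ecsit rose (0.31, adjusted p = 0.0416). The diet alone raised 3 and lowered 0 of the 34, Cox19 (0.56, adjusted p = 0.0090), Tmem126b (0.51, adjusted p = 0.0139) and Sdhaf3 (0.44, adjusted p = 0.0295), and against Control fenofibrate raised Cox15 and lowered 0.

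For transcription and RNA handling inside mitochondria, 3 of 22 genes rose and 2 fell with fenofibrate against HFD (median -0.11). Trmt10c, a subunit of the RNase P that cuts tRNAs out of the mitochondrial transcripts, had 16.6, 19.2, 16.7 and 15.5 CPM with fenofibrate, against 28.4, 25.4, 23.4 and 24.1 CPM in HFD (-0.58 ± 0.13, adjusted p = 0.0095). Tefm, the elongation factor of the mitochondrial RNA polymerase, also fell (-0.44 ± 0.12, adjusted p = 0.0242). Neither overlapped. Elac2, which cuts at the other end of those tRNAs, rose (0.45 ± 0.12, adjusted p = 0.0204), as did the RNA-binding FASTK-family genes Tbrg4 (0.52 ± 0.11, adjusted p = 0.0090) and Fastk (0.43 ± 0.09, adjusted p = 0.0061). Tbrg4 (-0.55 ± 0.11, adjusted p = 0.0052) and Fastk (-0.39 ± 0.09, adjusted p = 0.0089) were the 2 that fell in HFD against Control, where 0 rose. Against Control, fenofibrate raised 1 and lowered 2 of the 22, Trmt10c among the fallers (-0.48 ± 0.13, adjusted p = 0.0255). Tfam, which packages and transcribes mitochondrial DNA, had 42.15, 42.6, 45 and 45.08 CPM with fenofibrate, 53.0, 46.3, 43.6 and 48.4 CPM in HFD and 44.2, 49.5, 44.1 and 45.2 CPM in Control, with overlap throughout. Of 11 genes of mitochondrial DNA maintenance 0 passed with fenofibrate against HFD in edgeR's test; with the diet Mgme1 (0.53, adjusted p = 0.0416) and Mpv17 (0.50, adjusted p = 0.0201) rose.

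Among 12 regulators of mitochondrial biogenesis, fenofibrate against HFD raised 1 and lowered 0, near the share over all genes. The orphan receptor gene Esrrg had 6.51, 6.95, 7.43 and 6.30 CPM with fenofibrate, against 3.91, 3.35, 3.62 and 4.02 CPM in HFD and 1.73, 0.389, 0.994 and 0.994 CPM in Control. The 3 groups did not overlap (0.87 ± 0.22, adjusted p = 0.0214 against HFD; 1.83 ± 0.27, adjusted p = 0.00047 for HFD against Control). Its relative Esrra, an activator of respiratory chain genes, had 29.66, 29.42, 29.74 and 33.96 CPM with fenofibrate, 27.3, 24.7, 28.8 and 26.1 CPM in HFD and 42.6, 40.4, 34.5 and 31.9 CPM in Control. It fell in HFD against Control (-0.48 ± 0.10, adjusted p = 0.0063), the only faller of the list there, and did not pass with fenofibrate against HFD (0.20 ± 0.10, adjusted p = 0.199). Ppargc1a, the PPAR coactivator known for driving biogenesis, averaged 9.88 ± 1.40 CPM with fenofibrate, 7.31 ± 0.98 CPM in HFD and 8.59 ± 2.25 CPM in Control (SD, n = 4 each) and did not pass.

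Electrons also enter the chain beside complexes I and II. Of 14 such and uncoupling genes, 1 rose and 1 fell with fenofibrate against HFD, and likewise 1 rose and 1 fell in HFD against Control, near the shares over all genes. Prodh, the proline dehydrogenase that passes electrons to ubiquinone, had 266.7, 311.2, 225.9 and 243.6 CPM with fenofibrate, against 149.7, 140.6, 171.6 and 134.7 CPM in HFD (0.81 ± 0.13, adjusted p = 0.0017). Its Control values were 278.6, 216.2, 295.7 and 271.9 CPM, so HFD lay below both other groups (-0.83 ± 0.13, adjusted p = 0.00056 for HFD against Control). Gpd2, the mitochondrial glycerol-3-phosphate dehydrogenase, had 40.03, 30.26, 36.64 and 30.36 CPM with fenofibrate, against 51.6, 46.9, 35.4 and 57.1 CPM in HFD and 21.2, 22.3, 15.8 and 19.9 CPM in Control. It rose with the diet (1.27 ± 0.15, adjusted p = 6.8e-05) and fell with fenofibrate against HFD (-0.47 ± 0.15, adjusted p = 0.0428), with HFD library 3 inside the fenofibrate range. Of 77 mitochondrial ribosomal proteins, which translate the mitochondrially encoded subunits, 2 rose and 4 fell with fenofibrate against HFD (median -0.11), below the shares over all genes. Mrps26 rose (0.51, adjusted p = 0.0135), and Mrpl48 (-0.51, adjusted p = 0.0401), Mrpl50 (-0.45, adjusted p = 0.017) and Mrpl32 (-0.40, adjusted p = 0.0409) fell. In HFD against Control 3 rose and 0 fell, Mrpl50 (0.54, adjusted p = 0.00525), Mrps6 (0.57, adjusted p = 0.0389) and Mrpl1 (0.44, adjusted p = 0.0189).

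The authors' deposited table of fenofibrate against HFD had an adjusted p under 0.05 for 0 rising and 7 falling mitochondrial genes and for 6 rising and 19 falling nuclear members, beside 8.65% rising and 10% falling of the 13752 genes with an adjusted p there. In the authors' deposited table Uqcrc1 had a log2 fold change of 0.50 (adjusted p = 7.34e-07) and mt-Cytb -0.54 (adjusted p = 0.0041). For HFD against Control the authors' deposited table gave 0 mitochondrial genes and 0 rising and 4 falling nuclear members, beside 5.9% rising and 5.44% falling of 15013 genes.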

How the data were processed

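Whole-liver RNA-seq was deposited as 2 tables of read counts per gene, one with the HFD plus fenofibrate and HFD libraries and one with the HFD and Control libraries. The raw counts were made by the authors; HISAT2 2.0.5, HTSeq 0.6.0 and StringTie 1.3.2d are named in the submitters' processing notes, without their roles. The deposited tables also hold the authors' log2 fold changes and p-values. Neither strand setting nor annotation release is stated there. The notes list mm8 and mm9, but the positions of 92.55% of 25113 gene IDs equal those of GENCODE M21 on GRCm38, the build used for positions here.

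The tables were joined on gene ID, with missing genes as 0; 22657 genes were in both, and 0 HFD values differed between them. The 12 libraries were fitted together with edgeR 4.0.16 in R 4.3.3 (filterByExpr, TMM, quasi-likelihood test, 1 mean per group, prior count 0.125, Benjamini-Hochberg threshold 0.05); the SE is the log2 fold change over the square root of F. The script was tested on simulated data. DESeq2 1.42.0, limma-voom 3.58.1, other scalings and filters, subsets of libraries and a replicate block were alternatives. Copies were sought with BLAST 2.17.0 among GENCODE M21 transcripts. Total counts limit precision for genes of few counts. Members, lists and tests were chosen with earlier results of these data known. The rule for named genes took all mitochondrial members, in each comparison up to 8 rising and 8 falling nuclear members that passed, the most abundant nuclear member of each complex, tissue isoforms, and up to 4 passing genes of each other list by size of change; the text leaves some of these out. Nrf1, Gabpa, Tfam and Ppargc1a were named after their values were seen.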

Additional observations from a re-analysis of the deposited data

Results flagged for a closer look

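In groups of 4 libraries, 23 of 190 sets of values had 1 library far from the other 3 (a gap past Dixon's 95% limit). Chance gives about 1 in 20 independent sets. These sets share libraries, and genes recur in sums and shares, so an excess over chance is not shown. Fenofibrate library 2 was the high one for mt-Nd4 (8045 CPM), mt-Co2 (92.81 CPM), mt-Atp6 (59.37 CPM) and mt-Nd3 (3.715 CPM). It was also high for the nuclear members Uqcrq of complex III (301.9 CPM), cytochrome c (Cycs, 131 CPM, alone in its class, whose sum is thus also 131 CPM) and Ndufa1 (30.14 CPM), for the ribosomal protein sum (13250 CPM) and for the summed chromosome 1 copies (356.5 CPM). HFD library 1 was the high one for mt-Co1 (49111 CPM), mt-Nd4 (10276 CPM), mt-Co2 (146.9 CPM) and mt-Nd3 (8.694 CPM), for the summed mitochondrial genes (115700 CPM) and for their share of all counts (10.37%). Control library 4 was high for mt-Co2 (174 CPM) and for the sum from mt-Co2 to mt-Nd4l (389.4 CPM), Control library 1 was low for mt-Nd1 (8413 CPM), and Control library 2 was high for Cox6a1 (284.6 CPM). The other sets rest on single low counts, of mt-Atp8 in fenofibrate library 3 (0.09719 CPM), Cox4i2 in HFD library 4 (0.06191 CPM) and Cox6a2 in Control library 3 (0.1863 CPM).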

How the results depend on the processing

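Where a cause of a changed count is not part of the setting itself, it was not tested. For fenofibrate against HFD, falling mitochondrial genes numbered 2 without composition scaling, 2 without a low-count filter, 3 with only the 8 libraries compared and 0 without fenofibrate libraries 1 and 3, which leaves 2 libraries and called 0.898% of all genes. Rising nuclear members numbered 18 without composition scaling and 0 without those 2 libraries. Falling ones numbered 8 with DESeq2, 8 without the filter, 11 with 8 libraries, and 0 without scaling or without those 2 libraries. For HFD against Control, 1 nuclear member rose without scaling, and 6 fell with DESeq2, 1 with scaling without mitochondrial genes, and 0 without scaling, without the filter, with 8 libraries or without fenofibrate libraries 1 and 3. For fenofibrate against Control, falling mitochondrial genes numbered 3 with 8 libraries and 0 without those 2; rising nuclear members numbered 2 with DESeq2, 9 without scaling, 1 with scaling without mitochondrial genes and 3 without the filter; falling ones numbered 2 with DESeq2, 2 without the filter and 0 without those 2 libraries.

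Leaving out 1 library at a time gave 1 to 6 falling mitochondrial genes, 4 to 7 rising and 0 to 17 falling nuclear members for fenofibrate against HFD, 0 to 2 falling nuclear members for HFD against Control, and 1 to 6 falling mitochondrial genes with 0 to 3 rising and 1 to 20 falling nuclear members for fenofibrate against Control. The mean ratio of mitochondrial to nuclear counts then stayed within 6.383 to 6.796 with fenofibrate, 8.223 to 8.913 in HFD and 8.69 to 8.906 in Control.

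Same-numbered libraries did not deviate together (12 correlations from -0.175 to 0.139), so the numbers do not pair them. With the replicate block, 2 mitochondrial genes fell for fenofibrate against HFD, 2 against Control, and 0 nuclear members fell for HFD against Control; under that block mt-Co2 was 0.008 for HFD against Control.

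Signs turned only in log2 fold changes that had not passed. Leave-one-out fits for fenofibrate against HFD gave mt-Co3 -0.651 to 0.288, the highest without HFD library 1. For HFD against Control they gave Ndufa1 -0.101 to 0.114 (-0.033 and -0.018 without HFD libraries 1 and 4), mt-Co2 -0.244 to 0.331 (0.020, 0.051 and 0.052 without HFD libraries 2, 3 and 4), mt-Co3 -0.056 to 0.850, mt-Nd2 -0.044 to 0.135, mt-Atp6 -0.021 to 0.434 and mt-Nd6 -0.128 to 0.013; mt-Co2 was 0.009 without scaling and 0.023 with limma-voom. For fenofibrate against Control they gave mt-Co3 -0.039 to 0.505 and Atp5d -0.001 to 0.098, and mt-Co3 was -0.27 without fenofibrate libraries 1 and 3.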
